A study of Homo sapiens with 72 samples.

Results

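The genes described were ID1, ID2, ID3, SMAD6, SMAD7, SKIL, SKI and TGIF1, which encode proteins that dampen TGF-β signalling or that are themselves induced by TGF-β and BMP ligands. They were taken by symbol from the raw count table, where they make up 8 of 44659 gene names. The expression level of each was followed in A375 cells, an established human melanoma line, with 3 replicates in each of 24 groups and 72 libraries in all. In 1 experiment, cells were transfected for 42 h with pooled siRNAs against CTU2 (siCTU2) or with the control siRNA siGL2, which targets luciferase. In the other, the medium lacked glutamine (mQ) or contained it (pQ) for 18 h. Every group, the 0 h groups included, then received triptolide at 25 µM, which blocks transcription, either alone (T arm) or together with cycloheximide at 100 µg/ml, which blocks translation (TCHX arm). Cells were harvested at once (0 h) or after 3 or 5 h. Cytoplasmic RNA was measured by QuantSeq, which reads the 3′ end of polyadenylated RNA, so that counts do not grow with transcript length. All groups came from 1 cell line. The labels do not say whether replicates were separate cultures, and p-values then measure only the spread between these libraries, which may be technical.

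TGF-β and BMP ligands act through receptor kinases that phosphorylate signalling SMADs, which enter the nucleus and switch on targets that include brakes on the same pathway. SMAD6 and SMAD7 are inhibitory SMADs that act at the receptors. SKI and SKIL (also called SnoN) are corepressors that bind signalling SMADs, and TGIF1 is a homeobox corepressor recruited to them. The ID proteins are dimerisation partners of E proteins that lack a DNA-binding region. They are classic BMP targets, and their mRNAs, like those of many immediate feedback inhibitors, are known for rapid turnover. In melanoma cells, TGF-β is known both as a brake on growth and as a driver of invasion. CTU2 is a subunit of the enzyme that thiolates the wobble uridine of tRNAs that read A-ending codons of lysine, glutamate and glutamine.

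The 3′ untranslated region (UTR) of each gene was searched for ATTTA, the core letters of AU-rich elements, on the transcript strand, in GENCODE release 44 transcripts of GRCh38. All 8 genes held at least 1 ATTTA, as did 70.9% of the 18482 genes compared. The longer nonamer TTATTTATT, which contains ATTTA, was in 0 of the 8 and in 8.92% of all. SKIL had the highest density, with 23 ATTTA in 4418 bases, and SMAD6 had 6 in 1314 bases. ID1 held 1 in 416 bases, ID2 held 3 in 784 bases and SMAD7 held 3 in 1519 bases. The sites of ID1, ID2 and SMAD7 are printed because their mRNAs fell by 2.85 or more on the log2 scale by 3 h in every condition. Capitals mark ATTTA. The ID1 site lies on the plus strand at chr20:31606489-31606510. The ID2 sites lie on the plus strand at chr2:8683877-8683901, chr2:8684116-8684140 and chr2:8684397-8684421. The SMAD7 sites lie on the minus strand at chr18:48920177-48920201, chr18:48920124-48920148 and chr18:48920040-48920064.
ID1 3′ UTR site: taaacaaataATTTAgatggtg
ID2 3′ UTR first site: gatattcgttATTTAtgaaaaagac
ID2 3′ UTR second site: ctgtgtatatATTTAtatataaata
ID2 3′ UTR last site: acaagttcaaATTTAtgtagactgt
SMAD7 3′ UTR first site: ctcattggaaATTTAgcattgtagt
SMAD7 3′ UTR second site: aaaacctgagATTTAttaaagaaaa
SMAD7 3′ UTR last site: aagcatcattATTTAtgtattgtgc

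The promoters of ID1, ID2 and SMAD6 are printed because both ID genes differed between conditions at 0 h and because only SMAD6 matched the palindromic SMAD motif. They are RefSeq windows of GRCh38.p14 from 250 bases before to 50 bases after the start, on the plus strand at chr20:31605039-31605338, chr2:8681806-8682105 and chr15:66701986-66702285. Capitals mark the palindromic SMAD motif GTCTAGAC, which reads the same on both strands. RefSeq windows were found for 7 of the 8 genes, 15 windows in all.
ID1 promoter: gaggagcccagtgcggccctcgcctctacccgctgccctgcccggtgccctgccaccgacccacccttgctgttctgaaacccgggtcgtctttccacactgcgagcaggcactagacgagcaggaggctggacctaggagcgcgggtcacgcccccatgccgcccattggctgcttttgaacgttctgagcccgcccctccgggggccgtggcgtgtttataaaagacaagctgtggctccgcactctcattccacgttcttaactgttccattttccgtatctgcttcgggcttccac
ID2 promoter: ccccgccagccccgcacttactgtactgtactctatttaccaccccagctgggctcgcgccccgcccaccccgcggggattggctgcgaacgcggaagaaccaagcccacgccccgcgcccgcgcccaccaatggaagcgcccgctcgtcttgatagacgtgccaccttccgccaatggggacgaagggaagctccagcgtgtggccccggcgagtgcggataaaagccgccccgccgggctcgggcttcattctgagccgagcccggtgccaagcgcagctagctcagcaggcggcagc
SMAD6 promoter: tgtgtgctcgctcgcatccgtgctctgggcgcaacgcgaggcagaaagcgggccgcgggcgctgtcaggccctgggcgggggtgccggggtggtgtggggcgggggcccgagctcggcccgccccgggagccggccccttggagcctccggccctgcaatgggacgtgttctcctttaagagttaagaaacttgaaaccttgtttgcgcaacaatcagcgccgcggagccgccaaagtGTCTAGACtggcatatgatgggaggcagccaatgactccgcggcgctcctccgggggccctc
Among 35116 promoter windows of all genes, 0.202% held GTCTAGAC, 45.3% held the shorter SMAD box CAGAC and 19.2% held the GC-rich motif GGCGCC, each on either strand. CAGAC was absent from the printed ID1, ID2 and SMAD6 windows and present in windows of ID3, SKIL, SMAD7 and TGIF1. A match is a description of the letters in the window and not of binding. The coding sequences differed widely in codon use. A- or T-ending codons made up 64.2% of the SKIL coding sequence and 47.4% of that of TGIF1, against 11.1% in SKI, 11.7% in SMAD6, 14.8% in ID1 and 18.7% in ID2, with a median of 39.1% over 19704 genes.

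Libraries held between 5987692 and 15534331 counts. In 69 libraries, 15507 to 17495 genes were detected, whereas 19896 to 20364 were detected in 3 others, all labelled replicate 3: pQ in the TCHX arm at 0 h, mQ in the T arm at 5 h and siCTU2 in the TCHX arm at 5 h. These 3 libraries also had 63.7 to 64.9 CPM (counts scaled to an equal library total) summed over 6 blood cell markers, through PTPRC and CD3E, against 0 to 1.58 CPM in the others. The summed melanoma markers reached 696 to 1596 CPM in the 69 libraries and 890 to 1063 CPM in the 3, and 8 of the 10 had a median above 1 CPM. CTU2 was at 0.133 to 2.95 CPM in 17 siCTU2 libraries and at 17.5 to 35.0 CPM in the siGL2 libraries. In the siCTU2-labelled library that stood apart, CTU2 was at 10.4 CPM, above all other siCTU2 libraries and below all siGL2 libraries. ID2 was at 59.4 to 68.2 CPM in these 3 libraries and at 0 to 21.2 CPM in all others. Levels of other members also differed in these libraries, and the direction depended on the group. In mQ at 5 h in the T arm, ID1 was at 0.393, 1.47 and 28.5 CPM and SMAD6 at 0.262, 0.564 and 5.38 CPM. SMAD7 was at 0.131, 0.338 and 3.44 CPM, and the library that stood apart was highest each time. In the TCHX arm of pQ at 0 h, the other libraries had ID1 at 55.8 and 48.9 CPM and SMAD7 at 3.92 and 5.92 CPM. TGIF1 was at 15.8 and 13.7 CPM in them. None of the 3 libraries exceeded 38.2, 3.58 and 11.4 CPM for these genes. SMAD6 went the other way, at 4.70 and 2.11 CPM against 5.38 CPM or more. Cycloheximide effects and TDD values that rest on these libraries are therefore also given without them. The T-arm changes from 0 to 3 h contrast groups that hold none of the 3. Their tests in siCTU2, mQ and pQ still use these libraries to estimate spread. The choice of stable genes used them too. Without them in the fit, the same members were called lower at 3 h in siCTU2, mQ and pQ (38.6, 58.6 and 55.0% of all genes). Over the 3 libraries, SKI was at 89.2 to 104 CPM, SKIL at 18.2 to 25.2 CPM and TGIF1 at 7.003 to 11.4 CPM.

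**Figure D1:**
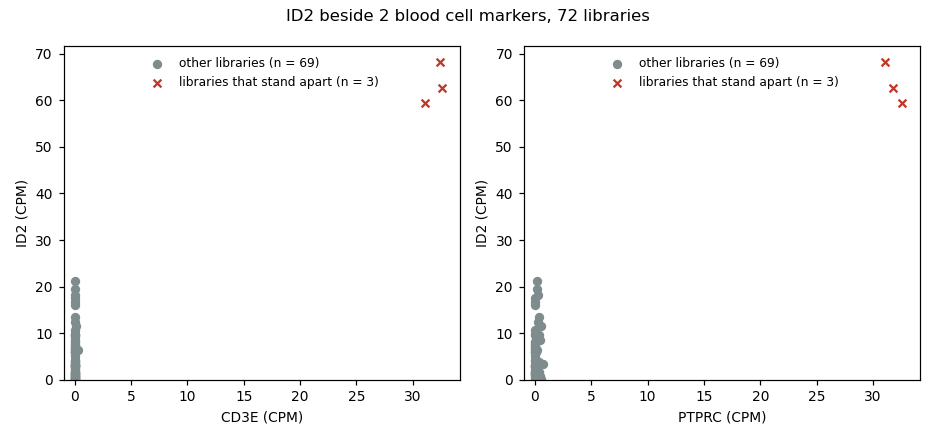
ID2 level (CPM, y axes) in each of the 72 libraries against that of the T cell marker CD3E (left) and the leukocyte marker PTPRC (right, CPM, x axes). Crosses are the 3 libraries that stood apart, with ID2 at 59.4 to 68.2 CPM, and circles the other 69, which reach 21.2 CPM.

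The levels before decay were compared between siCTU2 and siGL2 in the T arm at 0 h, which addresses what loss of CTU2 does to the mRNA levels of these genes. ID1 and ID2 mRNAs were lower and TGIF1 mRNA was higher in siCTU2 cells. In total, 3 of the 7 members tested passed the threshold (edgeR quasi-likelihood test, adjusted p of 0.05), against 36% of all 12292 genes tested. In bulk RNA, fewer cells of a type and less RNA per cell cannot be told apart.

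ID1 lies on chromosome 20 and was at 33.0, 36.4 and 33.7 CPM in the siCTU2 libraries and at 121, 118 and 116 CPM in the siGL2 libraries. All siCTU2 values were below all siGL2 values, and ID1 differed by -1.78 on the log2 scale (edgeR adjusted p = 5.37e-11, SE 0.09). ID2 was at 6.01, 6.73 and 5.99 CPM in siCTU2 and at 18.1, 16.0 and 16.8 CPM in siGL2. Again the groups did not overlap, and ID2 differed by -1.45 (edgeR adjusted p = 7.1e-06, SE 0.19). In the TCHX arm at 0 h, ID1 differed by -1.68 and ID2 by -1.65 on the log2 scale. The name ID3 held 1 count in all 72 libraries and could not be tested. The extra copy name ID3_1 held 485 counts, at most 29 per library, so that ID3 is uncertain here. ID3_1 was at 0.316, 0.0922 and 0.778 CPM in siCTU2 and at 2.19, 1.92 and 3.09 CPM in siGL2 (log2 fold change -2.50, SE 0.61, edgeR adjusted p = 0.0034).

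Neither inhibitory SMAD passed the test. SMAD6, which acts mainly on BMP receptors, was at 6.32, 4.52 and 4.04 CPM in siCTU2 and at 4.27, 5.87 and 6.30 CPM in siGL2 (log2 fold change -0.15, edgeR adjusted p = 0.715). SMAD7, which recruits ubiquitin ligases to the TGF-β receptor, was at 6.85, 6.27 and 4.51 CPM against 4.27, 4.86 and 3.21 CPM (0.50, edgeR adjusted p = 0.2). The values of both genes overlapped between the groups. The 95% intervals of the log2 fold changes ran from -0.72 to 0.41 for SMAD6 and from -0.08 to 1.08 for SMAD7.

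SKIL was at 30.3, 32.2 and 25.1 CPM in siCTU2 and at 35.0, 37.5 and 30.1 CPM in siGL2, and SKI was at 125, 119 and 125 CPM against 114, 100 and 120 CPM. Their log2 fold changes of -0.23 and 0.14 did not pass the test (edgeR adjusted p = 0.184 and 0.201). In the TCHX arm at 0 h, SKI rose by 0.36 (edgeR adjusted p = 0.00384). TGIF1 was at 24.4, 27.3 and 23.5 CPM in siCTU2 and at 17.7, 18.5 and 16.9 CPM in siGL2. The groups did not overlap, and TGIF1 rose by 0.50 on the log2 scale (SE 0.14, edgeR adjusted p = 0.00901).

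**Figure D2:**
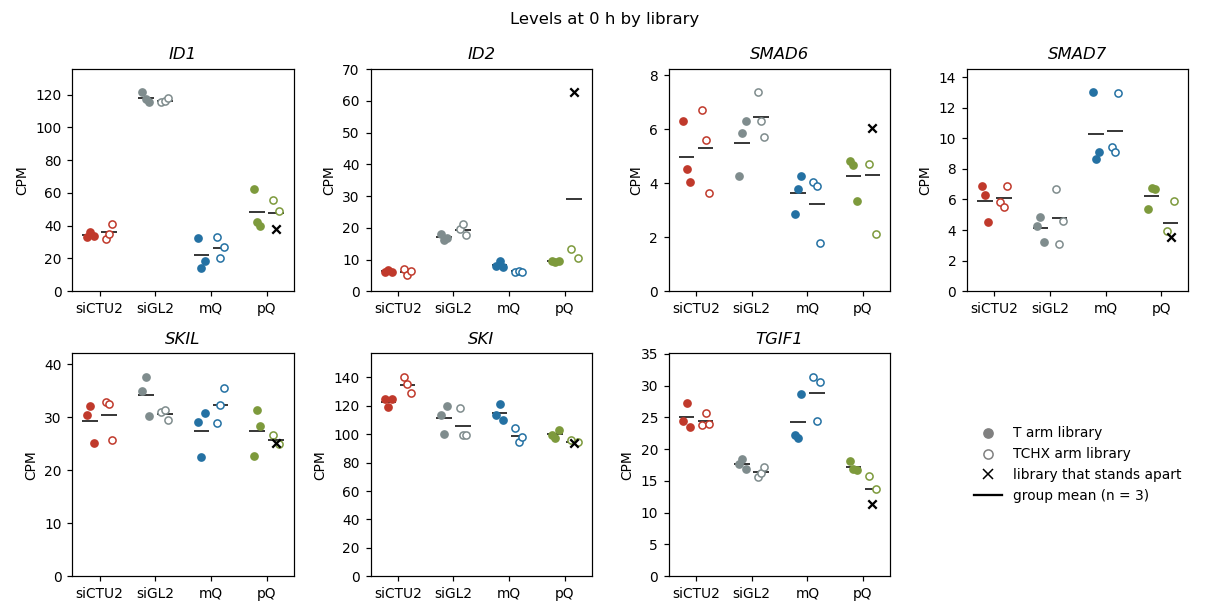
Level (CPM, y axes from 0) at 0 h of the 7 members with enough counts, by condition (x axes). Filled points are T arm libraries, open points TCHX arm libraries, the cross the library that stood apart and lines group means (n = 3). In the T arm, ID1 is at 116 to 121 CPM in siGL2 and at 33.0 to 36.4 CPM in siCTU2.

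Other genes of the TGF-β and BMP pathways were read from a list of 61 ligands, receptors, SMADs, modulators, corepressors, targets and ID partners. Of the 51 tested, 12 were higher and 12 lower in siCTU2 than in siGL2. Over all 12292 genes tested, 2194 were higher and 2235 lower, 36% in all. Among targets, 6 rose and 1 fell of 9 tested, and among receptors 2 rose and 5 fell of 12. The largest rises were those of CDKN1A, the cell cycle inhibitor p21 (2.49), CCN1, a matricellular protein (1.86), THBS1, which encodes thrombospondin (1.46), and TGFBI, a TGF-β-induced matrix protein (1.41). The largest falls were those of ID4, the remaining ID family member (-2.02), SMURF1, a ubiquitin ligase for receptors and SMADs (-1.502), the type II receptor TGFBR2 (-1.47) and the secreted FSTL1 (-1.34). SMURF1 also has an extra copy name in the table and is uncertain. ID4 was at 6.64, 5.26 and 4.98 CPM in siCTU2 and at 25.2, 21.3 and 21.5 CPM in siGL2, so that ID1, ID2 and ID4 were all lower in siCTU2.

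The same comparison between mQ and pQ addresses what glutamine withdrawal does to these levels. ID1 was lower and SMAD7 and TGIF1 were higher in mQ cells, again 3 of 7 members, against 24.8% of all 12374 genes tested. ID1 was at 32.8, 14.4 and 18.8 CPM in mQ and at 62.5, 42.2 and 39.7 CPM in pQ. No mQ library reached the lowest pQ library, and ID1 differed by -1.09 (edgeR adjusted p = 0.0114, SE 0.26). SMAD7 was at 12.99, 8.66 and 9.10 CPM in mQ and at 5.37, 6.74 and 6.65 CPM in pQ, and rose by 0.76 (SE 0.24, edgeR adjusted p = 0.0376). TGIF1 was at 22.3, 21.8 and 28.8 CPM in mQ and at 18.1, 16.9 and 16.7 CPM in pQ, and rose by 0.55 (SE 0.16, edgeR adjusted p = 0.0309). Neither gene overlapped between the groups. Without pQ replicate 1 the count of members called was 0 (ID1 edgeR adjusted p = 0.0667, 12.8% of all genes called), and without mQ replicate 1 (16.9%), pQ replicate 2 (11.7%) or pQ replicate 3 (17.9%) it was 1, ID1. With a replicate block, ID1 was likewise the only member called (19.9% of all genes).

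The other members did not pass the test between mQ and pQ. ID2 was at 8.04, 9.61 and 7.53 CPM in mQ and at 9.66, 9.18 and 9.65 CPM in pQ (log2 fold change -0.12, edgeR adjusted p = 0.704). In the TCHX arm without the library that stood apart, ID2 differed by -0.91 (edgeR adjusted p = 0.00905). SKI was at 113, 121 and 110 CPM against 99.2, 97.7 and 103 CPM (0.25, edgeR adjusted p = 0.0854). SKIL, with mQ values of 29.1, 22.5 and 30.7 CPM, and SMAD6, with mQ values of 2.85, 3.81 and 4.27 CPM, overlapped with pQ, where they were at 22.6 to 31.4 CPM and 3.33 to 4.83 CPM. Of the pathway list, 5 genes were higher and 3 lower of 52 tested. CCN2, a connective tissue growth factor (0.79), the latent TGF-β binding protein LTBP3 (0.65), CDKN1A (0.60) and the corepressor NCOR1 (0.40) rose, and SNAI2, a zinc-finger repressor (-1.25), the corepressor TGIF2 (-0.91) and ID4 (-0.83) fell. ID4 was at 15.5, 14.5 and 10.2 CPM in mQ and at 23.1, 27.7 and 23.6 CPM in pQ.

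Across the 4 conditions at 0 h, ID1 was highest in siGL2, at 118 ± 2.85 CPM (SD, n = 3), followed by pQ at 48.1 ± 12.5, siCTU2 at 34.4 ± 1.81 and mQ at 21.98 ± 9.62 CPM. The ranges of these 4 groups did not overlap. ID2 followed the order siGL2, pQ, mQ and siCTU2, and the pQ and mQ libraries overlapped. SMAD7 was at 10.3 ± 2.38 CPM in mQ, 6.25 ± 0.769 in pQ, 5.88 ± 1.22 in siCTU2 and 4.11 ± 0.835 in siGL2, and the last 3 overlapped with their neighbours. SMAD6 lay between 3.64 ± 0.727 in mQ and 5.48 ± 1.07 CPM in siGL2, and SKIL between 27.4 ± 4.41 in pQ and 34.2 ± 3.75 CPM in siGL2, with overlap between neighbours in both. SKI ran from 99.9 ± 2.65 CPM in pQ to 123 ± 3.26 CPM in siCTU2, with overlap between neighbours. TGIF1 formed a higher pair, siCTU2 at 25.1 ± 1.98 and mQ at 24.3 ± 3.90 CPM, and a lower pair, siGL2 at 17.7 ± 0.805 and pQ at 17.3 ± 0.776 CPM, with overlap within each pair and none between them. Differences between the siRNA and the medium experiment were not tested. Between the TCHX and T arms at 0 h, 0 genes passed the edgeR test in any condition, while 155 in siCTU2, 95 in siGL2, 309 in mQ and 292 in pQ had an unadjusted p below 0.05.

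Decay was read as the change from 0 to 3 h in the T arm, where new transcription was blocked. Counts were scaled to stable genes, which are selected for rising CPM after the block, and all changes are relative to them. All 7 members tested fell in all 4 conditions. The share of all genes called lower at 3 h was 36% in siCTU2, 28.5% in siGL2, 55% in mQ and 54.5% in pQ. The median log2 change of the 7 members was -2.08, -2.85, -3.89 and -3.21 in these conditions, against -0.55, -0.47, -0.72 and -0.70 over all genes tested. With TMM scaling, which centres on the bulk of genes, 4, 5, 2 and 6 members were still called, against 7.79, 8.25, 5.91 and 7.74% of all genes. Without replicate 1 the count was 3 in siCTU2 (7.77% of all genes) and 3 in siGL2 (10.1%). Without replicate 2 it was 3 in siGL2 (8.98%) and 4 in mQ (14.7%). With the reads of ID3_1 added to ID3, an alternative chosen after seeing the data, ID3 fell in siGL2, mQ and pQ. Of the pathway list, 25 of 53 genes fell in siCTU2, 19 of 52 in siGL2, 35 of 52 in mQ and 36 of 52 in pQ.

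The ID mRNAs fell steeply. At 3 h in the T arm, ID1 was left at 9.08, 10.2 and 6.74% of its 0 h value in siCTU2 and at 3.54, 2.90 and 2.21% in siGL2. In mQ it was at 11.3, 0.705 and 3.39%, and in pQ at 2.58, 4.29 and 5.73%. The log2 changes were -3.53 in siCTU2, -5.09 in siGL2, -3.89 in mQ and -4.64 in pQ (edgeR adjusted p of 0.00576 or smaller). ID2 was at 14.5, 20.5 and 4.22% in siCTU2, at 7.47, 19.7 and 15.2% in siGL2, at 7.82, 6.33 and 0.845% in mQ and at 21.2, 7.72 and 3.82% in pQ, with log2 changes between -2.85 and -4.35. The siCTU2 and siGL2 libraries overlapped for ID2 and did not for ID1. At 5 h, ID2 in mQ was 1.099 above 0 h on the log2 scale with the library that stood apart, and -5.25 without it. The 3 mQ libraries were at 6.06, 0 and 655% of 0 h, and the value of 655% is that library.

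SMAD7 was among the fastest. It was left at 10.0, 3.48 and 16.8% in siCTU2, at 0, 15.8 and 15.3% in siGL2, at 3.63, 4.68 and 0.699% in mQ and at 8.19, 0 and 7.39% in pQ. It had 0 counts in 7 of the 72 libraries and at most 145 counts in any, so that single percentages rest on few reads. Its log2 changes were -3.34, -3.29, -5.07 and -4.26. SMAD6 decayed more slowly in the siRNA experiment, where it was left at 36.5, 40.3 and 75.0% in siCTU2 and at 83.9, 40.7 and 32.8% in siGL2. In mQ it was at 11.1, 5.32 and 11.9% and in pQ at 21.2, 18.5 and 12.9%. Its log2 changes were -1.04 and -1.02 in siCTU2 and siGL2, and -3.33 and -2.47 in mQ and pQ. The siRNA and the medium experiment have their own stable genes and were not tested against each other.

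SKI was the most stable member. It was left at 65.0, 75.6 and 74.2% in siCTU2, at 71.5, 75.2 and 70.2% in siGL2, at 45.01, 36.4 and 46.4% in mQ and at 58.4, 62.7 and 56.8% in pQ. Its log2 changes were -0.49, -0.47, -1.24 and -0.75, close to the median of all genes except in mQ, and under TMM scaling those of siCTU2 and siGL2 turned to 0.065 and 0.0089. SKIL lay between, at 39.9, 48.8 and 51.1% in siCTU2, 38.5, 39.8 and 47.9% in siGL2, 35.97, 50.3 and 31.1% in mQ and 43.4, 35.7 and 25.0% in pQ, with log2 changes from -1.11 to -1.55. TGIF1 was left at 15.8, 24.8 and 30.4% in siCTU2 and at 10.4, 14.7 and 9.87% in siGL2, at 3.18, 4.65 and 4.86% in mQ and at 6.46, 8.86 and 10.7% in pQ. The siCTU2 libraries of TGIF1 were all above those of siGL2, and those of mQ all below those of pQ. Its log2 changes were -2.08, -3.08, -4.51 and -3.52.

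**Figure D3:**
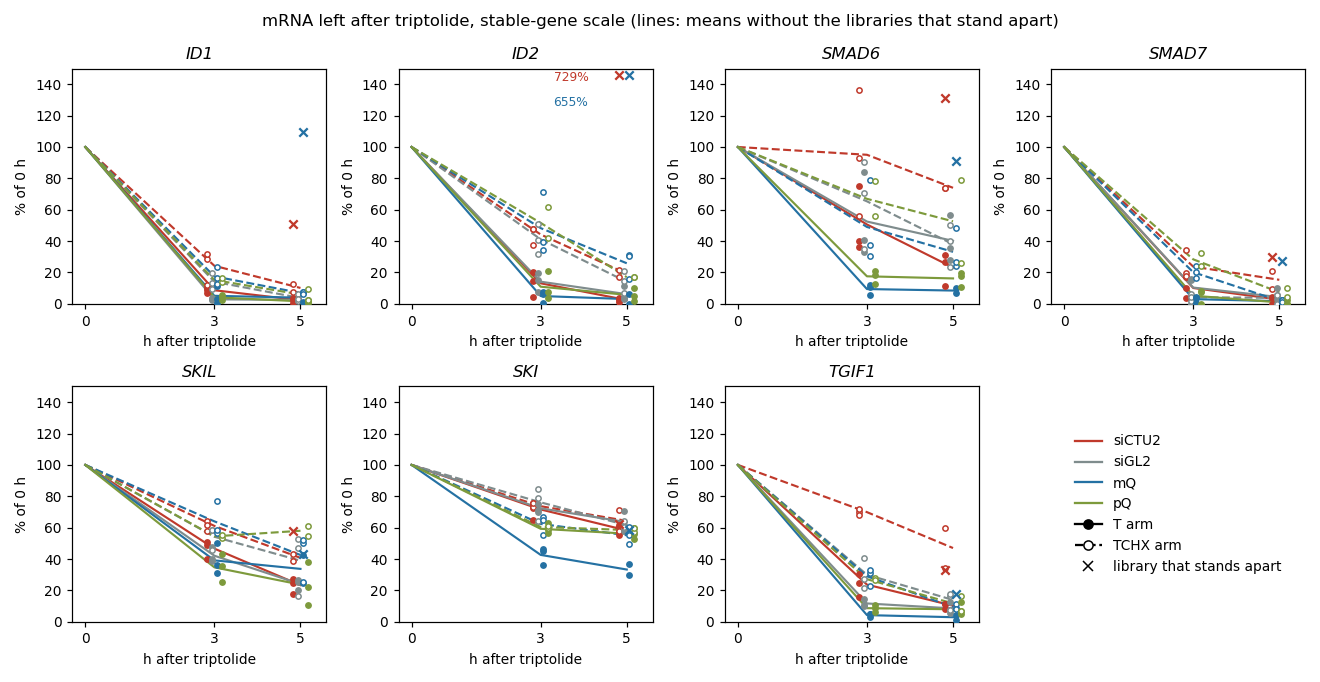
Percent of the 0 h value left at 3 and 5 h in the T and TCHX arms for each member and condition, on the stable-gene scale. The x axes give h after triptolide, filled points and solid lines the T arm, open points and dashed lines the TCHX arm, and crosses the libraries that stood apart, which the mean lines leave out. The ID2 crosses at 729% and 655% lie beyond the axis and are written out. In siCTU2, TGIF1 is at 68.2 to 71.6% at 3 h with cycloheximide and at 15.8 to 30.4% without.

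Cycloheximide keeps mRNAs whose decay depends on translation, and its effect was taken as the TCHX minus the T level, averaged over 3 and 5 h. In siCTU2, 6 of 7 members were higher with cycloheximide, all except SKI (20.9% of all genes tested). In siGL2, ID1, ID2 and TGIF1 were higher, 3 of 7 (12.1% of all genes). In mQ, SKIL and TGIF1 were higher, 2 of 7 (5.02% of all genes), and in pQ 6 of 7 were higher, again all except SKI (12.1% of all genes). Without the libraries that stood apart, all 7 members were called in mQ, against 20.6% of all genes, and the same number as before in siCTU2 (17.3%) and pQ (12.1%). With the TCHX minus T difference at 0 h subtracted, 5 members were called in siCTU2 (8.6% of all genes), 1 in siGL2 (3.74%), 0 in mQ (0.00737%) and 1 in pQ (5.09%). At 3 h alone, 1 was called in siCTU2 (4.31%), 1 in mQ (0.339%) and 3 in pQ (2.77%). Without replicate 1 the counts were 1 in siGL2 (5.03%), 0 in mQ (0.0145%) and 2 in pQ (5.51%). Without replicate 2 they were 0 in mQ (0.0074%) and 1 in pQ (5.59%), and without replicate 3 the mQ count was 6 (23.5%). On the pathway list, 16 of 53 genes were higher in siCTU2, 11 of 52 in siGL2 where 2 were lower, 7 of 52 in mQ and 11 of 52 in pQ.

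ID1 was kept at 28.6, 31.8 and 12.3% of 0 h at 3 h with cycloheximide in siCTU2, and at 13.1, 19.5 and 9.60% in siGL2. Every one of these values was above those of the T arm of its condition. The log2 differences of ID1 were 2.41 in siCTU2 (SE 0.43), 1.41 in siGL2 (SE 0.23) and 1.88 in pQ (SE 0.31), with edgeR adjusted p of 0.000398, 0.000402 and 0.000329. Without the library that stood apart, the siCTU2 difference was 1.70. In mQ the difference was -0.21 with the library that stood apart and 1.58 without it. ID2 rose by 4.10 in siCTU2, of which 2.22 was left without the library that stood apart, by 1.64 in siGL2 and by 2.21 in pQ. In mQ the ID2 difference was -0.25 with, and 2.92 without, that library. At 3 h with cycloheximide, ID2 was at 47.9, 47.5 and 37.3% in siCTU2, 40.9, 31.6 and 50.9% in siGL2, and 71.3, 39.5 and 34.1% in mQ.

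SMAD7 rose by 2.09 in siCTU2 (SE 0.43) and by 2.18 in pQ (SE 0.60), was at -0.23 in siGL2 (SE 0.81) and at 0.27 in mQ (SE 0.64). Without the libraries that stood apart, SMAD7 was at 1.84 in siCTU2 and rose by 1.60 in mQ (edgeR adjusted p = 0.017). In siGL2, SMAD7 was at 6.57, 1.82 and 4.34% at 3 h with cycloheximide and at 0, 15.8 and 15.3% without, and the arms overlapped. In siCTU2, the values were 19.6, 34.0 and 17.5% with and 10.0, 3.48 and 16.8% without, all higher with cycloheximide. SMAD6 rose by 1.45 in siCTU2 and by 1.404 in pQ, and differed by 0.46 in siGL2 and 0.72 in mQ, which did not pass the test. Without the libraries that stood apart, SMAD6 rose by 1.963 in mQ (edgeR adjusted p = 0.00243).

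SKIL rose by 0.65 in siCTU2, 0.73 in mQ and 0.87 in pQ, and was at 0.43 in siGL2. SKI, the slowest to decay, differed by 0.14 in siCTU2, -0.02 in siGL2, 0.30 in mQ and 0.08 in pQ and did not pass the test in any of them with all libraries. Without the libraries that stood apart, SKI rose by 0.48 in mQ (edgeR adjusted p = 0.001). TGIF1 passed in all 4 conditions, and without those libraries ID1 and ID2 did as well. TGIF1 rose by 1.68 in siCTU2 (SE 0.18), 0.96 in siGL2 (SE 0.25), 1.60 in mQ (SE 0.42) and 0.87 in pQ (SE 0.24). Without those libraries it rose by 2.59 in mQ. Leaving out 1 replicate, its edgeR adjusted p reached 0.228 in siGL2, 0.530 in mQ and 0.173 in pQ. With all libraries and the 0 h difference subtracted, TGIF1 passed only in siCTU2. At 3 h with cycloheximide, TGIF1 was at 69.9, 68.2 and 71.6% of 0 h in siCTU2 and at 27.3, 40.9 and 21.7% in siGL2. In mQ it was at 22.6, 31.4 and 33.0% and in pQ at 27.9, 26.4 and 41.9%, where 41.9% is relative to the 0 h library that stood apart.

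**Figure D4:**
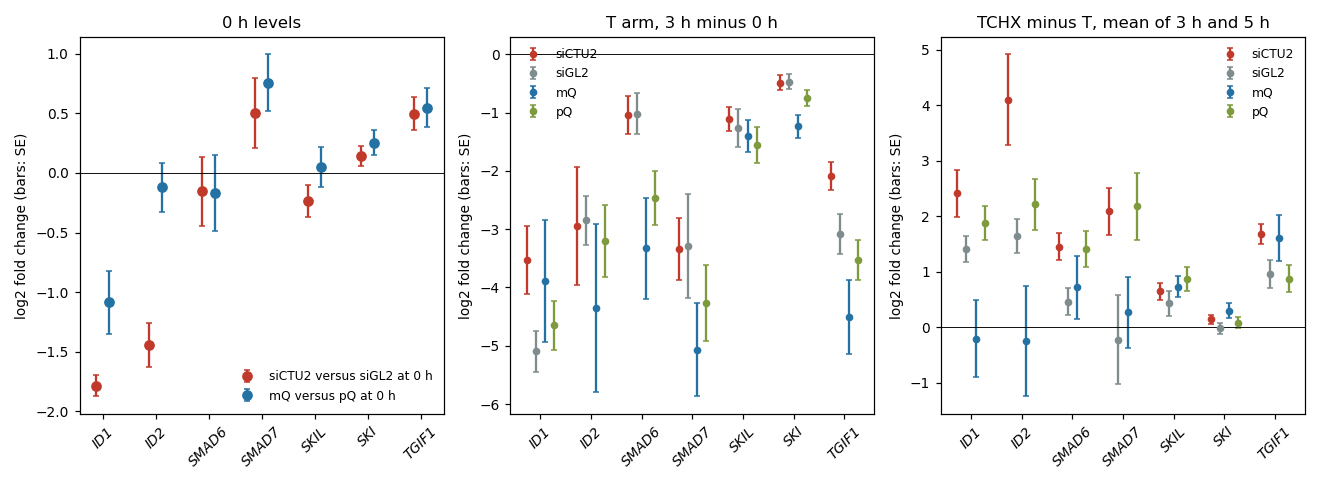
Log2 fold changes with standard errors of the 7 members for the 0 h comparisons, the T-arm decay and the cycloheximide effect. The x axes give the members, with 0 h levels on the left, the change from 0 to 3 h in the T arm in the middle and TCHX minus T on the right, fitted on all libraries. SKI lies nearest to 0 for decay in all 4 conditions, at -0.47 to -1.24.

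Whether decay or the cycloheximide effect differed between conditions was tested as the difference itself. The T-arm decay differed in 0 of 7 members between siCTU2 and siGL2 (0% of all 14266 genes, edgeR). At an unadjusted p under 0.05 were 2 members, ID1 and TGIF1, and 413 of all 14266 genes. ID1 differed by 1.56 (SE 0.67, edgeR adjusted p = 1) and TGIF1 by 0.99 (SE 0.40, edgeR adjusted p = 1), both with less loss in siCTU2. DESeq2 called 8 genes in all and 0 of the 6 members to which it gave an adjusted p, which leaves out ID2. Between mQ and pQ, decay differed in 0 of 7 members (0% of all 14382 genes, edgeR). Of the members, only SKI was at an unadjusted p under 0.05, against 374 of all 14382 genes, and DESeq2 called 0 members. Without the libraries that stood apart, edgeR called 0 members in either comparison (0.149 and 0% of all genes).

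The cycloheximide effect differed between siCTU2 and siGL2 in 0 of 7 members (0.379% of all genes, edgeR). ID2, SMAD6, SMAD7 and TGIF1, 4 members, were at an unadjusted p under 0.05, as were 1320 of all 14266 genes tested. DESeq2 called 0 of the 6 members it tested, which leaves out ID2. The differences, siCTU2 minus siGL2, were 2.46 for ID2, 0.99 for SMAD6, 2.31 for SMAD7 and 0.72 for TGIF1. Without the libraries that stood apart they were 0.58 for ID2, 0.98 for SMAD6, 2.05 for SMAD7 and 0.80 for TGIF1. In that setting 0 members were called (0.244% of all genes). Between mQ and pQ, 0 of 7 were called by edgeR (0% of all genes) and 0 by DESeq2. At an unadjusted p under 0.05 were 3 members (ID1, ID2 and SMAD7) and 552 of all 14382 genes tested. The differences, mQ minus pQ, were -2.09 for ID1, -2.46 for ID2 and -1.91 for SMAD7 with all libraries, and -0.30, 0.71 and -0.58 without those that stood apart. In the fit without those libraries, TGIF1 differed by 1.72 between mQ and pQ (edgeR adjusted p = 0.0237), and 0.552% of all genes were called.

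The translation-dependent decay (TDD) index is the TCHX minus the T level at the same time divided by the mean 0 h level, averaged here over 3 and 5 h. It gives the extra mRNA left with cycloheximide as a share of the 0 h level. Between siCTU2 and siGL2, 3 of 7 members were at an unadjusted p of at most 0.05 by a linear model fitted per gene (8.16% of all 12288 genes), and 0 genes passed after adjustment. TGIF1 had an index of 0.463, 0.313 and 0.313 in siCTU2 and 0.0966, 0.148 and 0.0749 in siGL2, with no overlap (difference 0.26, SE 0.04). SMAD6 was at 0.569, 0.407 and 0.662 against -0.00550, 0.285 and 0.190 (difference 0.39, SE 0.16), and SMAD7 at 0.0692, 0.223 and 0.189 against 0.0417, -0.0882 and -0.0363 (difference 0.19, SE 0.07). An exact permutation test over the replicate means, two-sided, gave p = 0.1 for ID1, SMAD6, SMAD7 and TGIF1. This is the smallest p the design allows, so the test cannot reach the threshold. Without the libraries that stood apart (7.67% of all genes), and without replicate 2 (10.2%) or replicate 3 (6.45%), 1 member, TGIF1, was at an unadjusted p of at most 0.05. Between mQ and pQ, 0 of 7 members were at an unadjusted p of at most 0.05 (4.79% of all genes), without those libraries 2 were (SKI and TGIF1, 13.9% of all genes), and without replicate 3 there were 3 (12.9%). Values of replicate 3 in siCTU2, mQ and pQ rest on libraries that stood apart, and the siCTU2 minus siGL2 difference without them was 0.26 for TGIF1, 0.32 for SMAD6 and 0.16 for SMAD7. TGIF1 was at 0.155, 0.210 and 0.0924 in mQ and at 0.1003, 0.0759 and 0.111 in pQ. Of the pathway list, 5 of 51 genes were higher in siCTU2 and 3 of 51 in mQ.

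**Figure D5:**
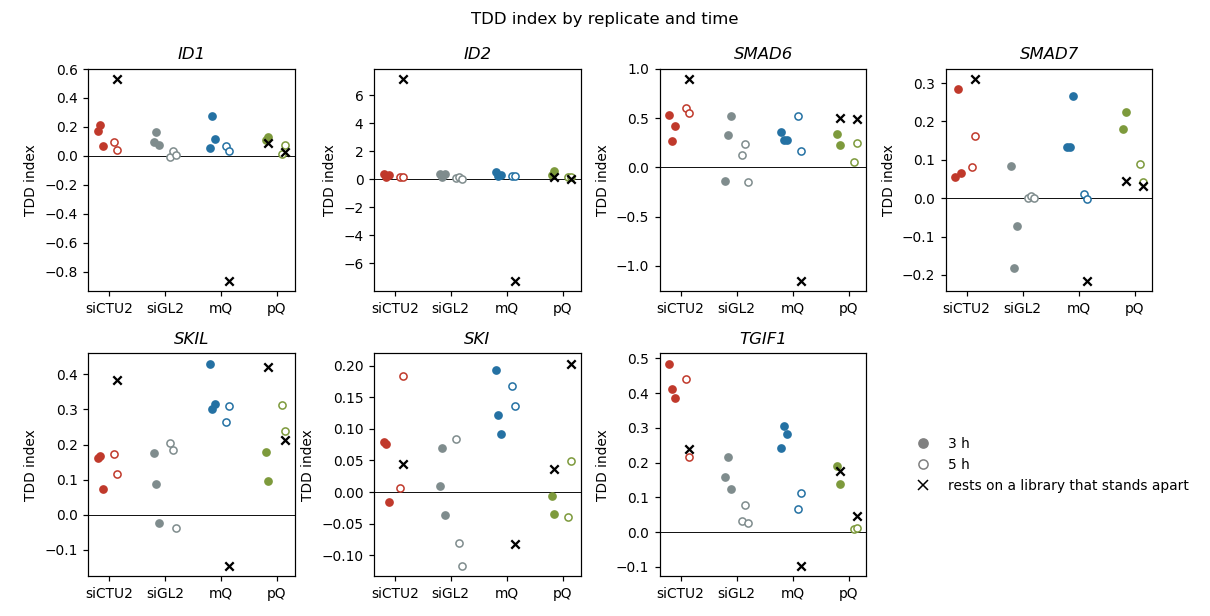
TDD index (y axes, no unit) of the 7 members by condition (x axes), with 1 point for each replicate and time. Filled points are 3 h, open points 5 h, and crosses values that rest on a library that stood apart. Averaged over both times, TGIF1 lies at 0.313 to 0.463 in siCTU2 and at 0.0749 to 0.148 in siGL2.

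The members were also placed among other genes by their pattern over the 24 group means of log2(CPM + 1), as a description over groups that share libraries, depth and scale. The means include the libraries that stood apart. Among 9663 genes, the patterns most like ID1 were those of SGK1 (Pearson r = 0.956) and CDK5R1 (0.954). Those most like ID2 were SNAI2 (0.919) and ZBTB39 (0.915), at 0.958 and 0.959 without the libraries that stood apart. For SMAD6 they were MPHOSPH6 and ZNF267 (0.933 each), for SMAD7 TRPC1 (0.942) and TRIB1 (0.936), for SKIL ZNF131 (0.972) and MSC (0.971), for SKI ARSJ (0.925) and ZNFX1 (0.917), and for TGIF1 TBCC (0.969) and JUNB (0.967). Within the members, with all libraries, ID1 and ID2 were the closest pair (r = 0.911), and ID2 and SKI the least alike (r = 0.283). Correlations between members were not calculated without the libraries that stood apart.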

How the data were processed

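QuantSeq 3′ libraries were made from cytoplasmic RNA of A375 cells in 72 samples, grouped by their titles. The table deposited holds whole-number read counts for each gene. As the study's methods and processing notes state, the authors trimmed reads with fastp 0.20.1, mapped them to GRCh38.p13 with HISAT2 2.2.1 and counted exons of the NCBI annotation with HTSeq 0.13.5. A strand setting is not given in the sources used here, and neither is a step with molecular identifiers. Counts may therefore include PCR copies. The table had 0 spike-in names, so that scaling to the added ERCC standards was not used here. All columns matched a sample.

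Counts were analysed in R 4.3.3 with edgeR 4.0.16 (filterByExpr, quasi-likelihood test, Benjamini-Hochberg adjustment over all genes tested, threshold 0.05, no replicate term). TMM scaling was used for the 6 libraries of each 0 h comparison. Over time, size factors came from genes whose CPM was above 0.2 at 0 h and at least 1.1 times higher later in every replicate of both conditions and arms (198 genes in the siRNA and 82 in the medium experiment, 0 of them members). The 197 and 81 of them with no zero count gave the factors. Conditions were fitted on 18 libraries each and differences between conditions on 36. The TDD index followed the study's methods, for genes averaging 10 or more normalised counts at 0 h, with a linear model of condition, time and replicate on 12 values per gene. Values at 3 and 5 h share the 0 h level and are not independent. DESeq2 1.42.0 was an alternative, and the fits were tested on simulated data. All 8 members are described. For the pathway list, the 4 largest rises and falls past the threshold with at least 5 CPM in the higher group are named, and for likeness the 2 genes with the highest correlation. The members and the lists were chosen with earlier results of these data known. UTR sites were read from GENCODE release 44, which shares the primary assembly of GRCh38 with the deposited counts.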

Additional observations from a re-analysis of the deposited data

How the results depend on the processing

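Of 1191 alternative values of the members, 316 of the leave-one-out values and 740 of the others kept their side of the threshold. Another 52 and 53 were no longer past it, and 8 and 14 newly passed it. The remaining 2 and 6 changed direction with the main or the alternative value past the threshold. The 316 and 740 include values that changed direction without passing it in either fit. For example, the cycloheximide effect of SMAD7 in siGL2 was -0.23 in the main fit. Leaving out 1 replicate, it ran from -0.95 to 0.48. The cause of these changes was not tested. TMM scaling left 4 members called lower at 3 h in siCTU2 (7.79% of all genes) and 2 in mQ (5.91%). It turned SKI to 0.065 in siCTU2 and 0.0089 in siGL2. In the TDD comparison of mQ and pQ it gave 1 member (6.8%). From 0 to 5 h, 4 members fell in mQ (43.4% of all genes) and ID2 was at 1.099. At 3 h alone, cycloheximide raised 1 member in siCTU2 (4.31% of all genes), 1 in mQ (0.339%) and 3 in pQ (2.77%). With the 0 h difference subtracted, the counts were 1 in siGL2 (3.74% of all genes), 0 in mQ (0.00737%) and 1 in pQ (5.09%). Without a low-count filter, the cycloheximide effect differed for 1 member between siCTU2 and siGL2 (0.499% of all genes). Between mQ and pQ it differed for 2 (0.328%).

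Alternatives chosen after seeing the data left out the libraries that stood apart. Cycloheximide then raised 7 members in mQ (ID1 1.58, ID2 2.92, 20.6% of all genes). With the 0 h difference subtracted, it raised 4 in mQ (ID2 3.31, 10.3% of all genes) and 0 in pQ (3.11%). The cycloheximide effect differed for 1 member between mQ and pQ (0.552% of all genes). The TDD index differed for 1 between siCTU2 and siGL2 (7.67%) and for 2 between mQ and pQ (13.9%).

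Leaving out 1 replicate at a time, members called lower at 3 h numbered 3 to 7 in siCTU2, 3 to 6 in siGL2 and 4 to 7 in mQ. The shares of all genes called were 7.77 to 42.1%, 8.98 to 45.2% and 14.7 to 55.0%. Members raised by cycloheximide numbered 1 to 4 in siGL2, 0 to 6 in mQ and 1 to 5 in pQ. The shares of all genes raised were 5.03 to 16.4%, 0.0074 to 23.5% and 5.51 to 14.3%. The mQ differences ran from -0.70 to 1.502 for ID1 and from -0.51 to 2.88 for ID2. Members differing at 0 h between mQ and pQ numbered 0 to 3 (11.7 to 26.3% of all genes). In the cycloheximide effect between mQ and pQ they numbered 0 to 2 (0 to 2.06%). In the TDD index they numbered 1 to 2 between siCTU2 and siGL2 (3.95 to 10.2%). Between mQ and pQ those of the TDD index numbered 0 to 3 (3.07 to 12.9%).

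A replicate block left 1 member called between mQ and pQ at 0 h, ID1, with 19.9% of all genes (SMAD7 adjusted p = 0.0754, TGIF1 0.0611, edgeR). Same-numbered 0 h libraries correlated in their deviations with r between 0.0831 and 0.261 for the siRNAs and between -0.144 and 0.108 for the media, below 0.1 in some pairs. The column names of same-numbered libraries begin with the same prefix in all groups, but the labels do not say what the numbers share. Over the groups of a condition, 35 of 45 such pairs in siCTU2, 39 in siGL2, 31 in mQ and 42 in pQ exceeded 0.1, with values from -0.489 to 0.854. The block changed no other count of members called by over 1.5 times.

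Depth limits SMAD6 and SMAD7, with at most 84 and 145 counts per library, and ID3, whose name held 1 count.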
